A study of Rattus norvegicus with 2 samples.

Results

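The genes described here encode the splicing factors and heterogeneous nuclear ribonucleoproteins of rat cortical neurons. They were taken as every gene listed in either library whose rat symbol begins with Srsf, Hnrnp, Snrp, Sf3a, Sf3b, Prpf or U2af. There were 51 such genes among the 9894 genes listed, namely 8 Srsf, 13 Hnrnp, 8 Snrp, 3 Sf3a, 5 Sf3b, 12 Prpf and 2 U2af genes, and 50 of them were listed in both libraries.

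The study asked which mRNAs differ when PIWIL1, a PIWI protein of the germline, is knocked down in newborn cortical neurons. Cells dissociated from the somatosensory cortex of Sprague-Dawley rat embryos at E16 were electroporated with a control plasmid or with a PIWIL1 RNAi plasmid, kept in Neurobasal medium with serum and B27, and collected at 48 h. The siRNAs were expressed from pSuper vectors, and the labels do not name the siRNA that was sequenced. Each condition was measured in 1 library of a mixed culture, in which transfected and untransfected cells cannot be told apart, and fewer cells of a type and less RNA per cell cannot be told apart either. In digital gene expression profiling a transcript is cut at its CATG sites and counted by 21-base tags that begin with CATG. A gene's count is the sum of the copies of its tags, and its TPM is that count scaled to the clean tags of the library (tags per 1000000), not scaled by gene length.

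The control library held 1947600 copies on 9496 genes and the RNAi library 1865913 copies on 9297 genes. Piwil1 was listed in neither library, so the knockdown was not checked in these data. All 8 neuronal markers were listed, with 14421 copies in the control and 12601 in the RNAi library, against 18 and 19 copies for 4 oligodendrocyte lineage markers, 48 and 53 for the 2 microglial markers listed of 4, and none for 3 endothelial markers. Among the neuronal markers Stmn2 (7484 and 5678 copies), Tubb3 (1538 and 1068), Neurod6 (1275 and 849) and Map2 (24 and 8) were lower. Gap43 (2670 and 3541) was higher, and Dcx (1337 and 1365), Tbr1 (85 and 84) and Rbfox3 (8 and 8) were nearly equal. The 6 progenitor markers listed of 8 (without Eomes and Mki67) summed to 3332 and 4221 copies, of which Vim held 2674 and 3724, while the other 5 were each lower and summed to 658 and 497, the 3 astrocyte markers listed of 4 to 293 and 253, and 4 fibroblast markers to 1471 and 1373. The part of these cells in the values below was not tested.

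Splicing is carried out by the spliceosome, which is built on each intron from small nuclear ribonucleoproteins (snRNPs) and many associated proteins. The Sm proteins, encoded by most of the Snrp genes, form the ring common to most snRNPs. The U2AF and SF3 proteins act in recognition of the 3′ splice site and the branch site, and most PRP proteins belong to the U4/U6.U5 tri-snRNP or to later steps. SR proteins (Srsf) bind exonic enhancers and mostly favour inclusion of an exon, whereas hnRNPs bind nascent RNA and often oppose it, and in developing neurons the balance of such factors is known to change with differentiation.

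The tags that carry most of the counts discussed below are shown here as deposited, 5′ to 3′, with the last 2 bases in capitals. These bases matter because the ratio between the libraries went with them in tags of all genes. The median log2 ratio of tags ending in TG was -0.62 relative to all tags, that of tags ending in GT -0.60, in GG -0.48 and in AT -0.31, while tags ending in CA or AA stood at 0.24. The site number counts CATG sites from the 3′ end of the gene. A tag is called abundant below when its copies in the control and RNAi libraries add up to 20 or more.
Hnrnpa1, site 1: catgtgtactcaataaacgAT
Hnrnpa1, site 2: catgacgctgaataaatgtGT
Hnrnpa1, site 3: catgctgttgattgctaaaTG
Hnrnpab, site 1: catgtgcatcttatttaaaAT
Hnrnpk, site 2: catgtccctggcatttgttCA
Hnrnpu, site 4: catgccccagagaggtggtGG
Srsf2, site 1: catggtgtatcttttgcttAT
Srsf3, site 12: catgctgtcatttgtaataTG
Srsf3, site 13: catgtgatattaagaattgTT
Snrpg, site 1: catgtacattttcatatgaAA
Snrpd2, site 1: catggtgctggaaaatgtgAA
Sf3a3, site 1: catgctgacagattgcagaAT
Sf3b1, site 3: catgcagaatgttgcagtaTT
Sf3b1, site 5: catgtcacttggtgtttatGG
Sf3b2, site 1: catgctgccaaacagaagcAA
Prpf8, site 1: catgaggtccacaggccctCC
Prpf8, site 5: catgccaaaatcatggctgAC
Prpf4b, site 1: catgcagatttctgtatgtTC

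The tags shown for Hnrnpa1, Hnrnpab, Srsf2 and Srsf3 end in AT, GT, TG or TT, and those of Snrpg, Snrpd2 and Sf3b2 end in AA. Tags ending in AT, GG, GT or TG held 38.2% of the copies of the 51 genes but 17% of the copies of all genes. Much of this excess lay on the site 1 tag of Hnrnpa1, with 9714 and 6327 copies. Weighted by copies, the mean of the class medians was -0.08 for the 51 genes, -0.01 without Hnrnpa1 and 0.01 for all genes. Because the ratio went with the tag end, each log2 ratio is given as measured and, where stated, after the median ratio of the tag's end class, taken from the tags of all other genes, was removed (tag-end corrected).

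As a whole the 51 genes took 43201 copies in the control library and 36816 in the RNAi library, 2.22% and 1.97% of the copies on genes. The log2 ratio of these sums, RNAi over control, was -0.19 (95% counting interval -0.21 to -0.17), compared with -0.03 for all genes. One gene made up much of this difference: without Hnrnpa1, which held 25.7% of the control copies and 19.2% of the RNAi copies, the log2 ratio was -0.07. It was 0.02 with edgeR's TMM factors, which raised the median of all genes by 0.0945, so this value is not comparable with -0.03. The median gene did not stand apart, at -0.08 against a median of -0.09 over all genes listed in both libraries. By sign 34 genes were lower and 16 higher, beside 5045 and 3854 of the 8899 genes listed in both libraries. With TMM factors 24 of these members were lower and 26 higher, and the median of all genes was 0.0095. No replicate check was possible, since each condition was sequenced once, and all intervals cover counting error only.

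A gene was called downregulated or upregulated at an FDR of 0.05 or less, from Fisher's exact test (two-sided) on its copies with Benjamini-Hochberg adjustment over the 9894 genes, together with an absolute log2 ratio of 0.58 or more. The test compares these 2 libraries and not the conditions. Of the 51 genes 3 were called downregulated, among them Hnrnpa1 and Sf3b1, and 1, Prpf8, upregulated, while over all genes 5.97% were called downregulated and 2.96% upregulated. With the tag-end correction 2 genes were called downregulated, among them Prpf4b, beside 371 of all 9894 genes (3.75%). With TMM or DESeq2 factors 1 of the 51 was, beside 459 and 475 of all genes. Prpf8 was called upregulated with the correction, TMM and DESeq2 factors, beside 182, 398 and 382 of all genes. Hnrnpa1 and Sf3b1 thus missed the ratio threshold under each of these 3 alternatives, although both kept an FDR below 0.05 and a negative sign. Under an assumed biological coefficient of variation of 0.1, edgeR's exact test called Prpf8 alone of the 51. It called 122 of all genes downregulated and 135 upregulated.

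**Figure D1:**
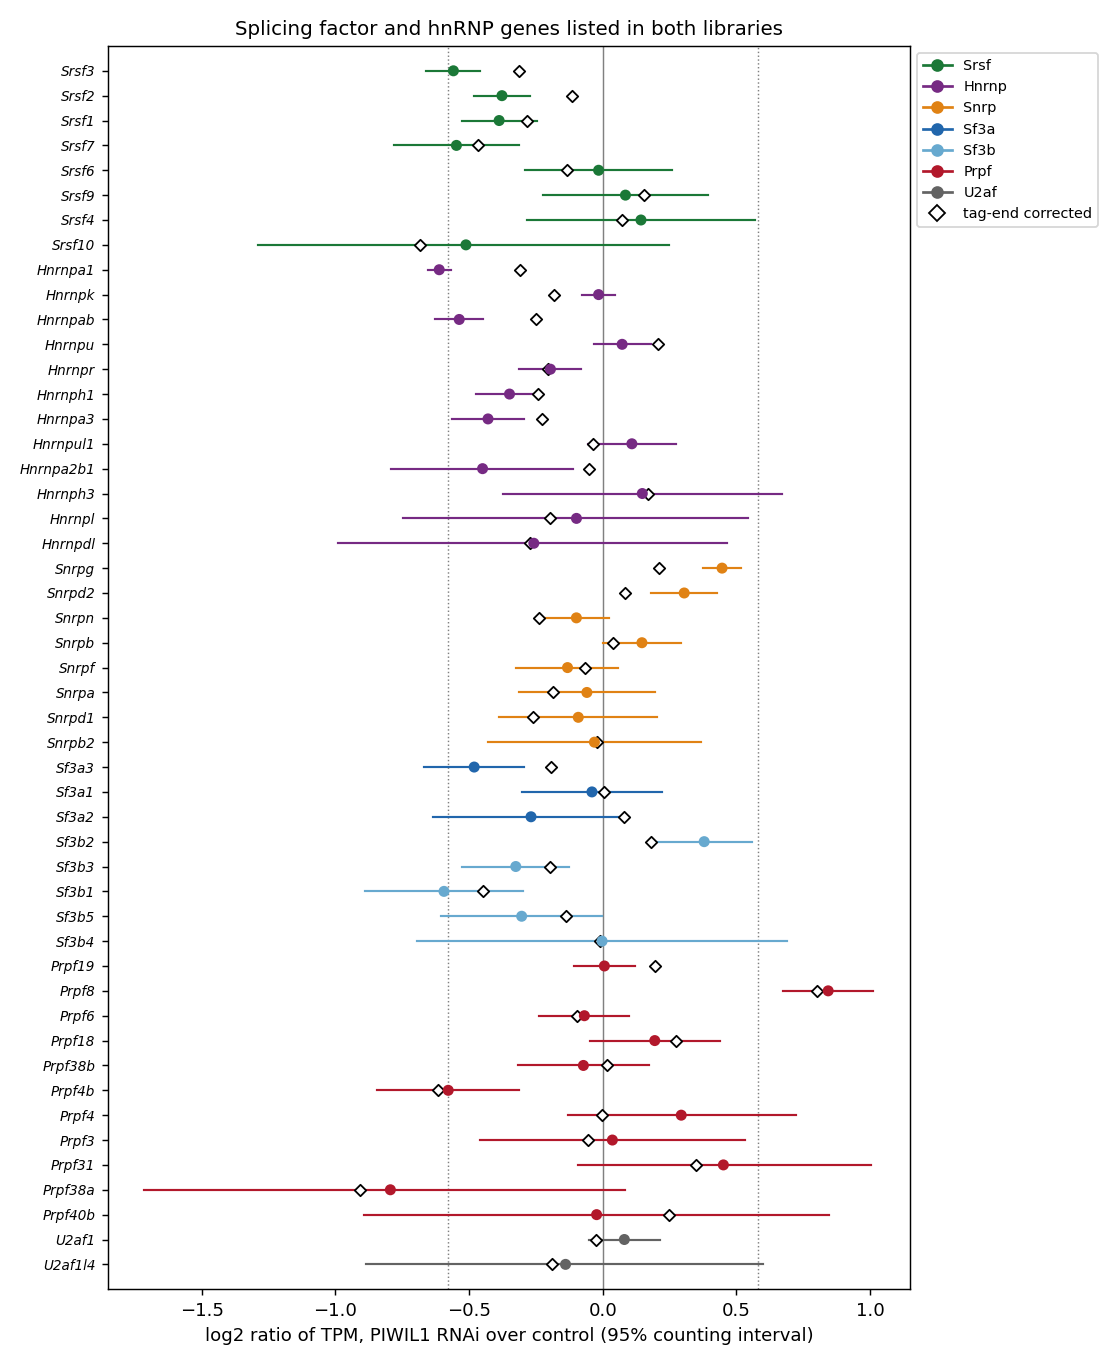
Log2 ratio of TPM, RNAi over control, for 49 of the genes listed in both libraries, grouped by family and ordered by copies. Filled dots are measured ratios with 95% counting intervals, open diamonds are tag-end corrected ratios, and dotted lines mark the ratio threshold of 0.58. Prpf8 at 0.84 lies past the threshold with either value, whereas Hnrnpa1 moves from -0.61 to -0.31. Prpf38a, at -0.79 with few copies, did not pass the FDR.

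Many of these genes are highly expressed, so small ratios could pass the FDR. Of the 37 genes whose copies in the libraries added up to 200 or more, 13 (35.1%) were lower at the FDR alone and 4 (10.8%) higher, where the same count over all 3225 genes of that abundance gave 19.2% lower and 17.6% higher. The 37 genes had a median of 1158 copies against 456 for the 3225 genes, so the shares were not matched for copies. Among the 13 lower genes were 4 SR genes and 5 hnRNP genes, and the 4 higher genes were Prpf8, Sf3b2, Snrpd2 and Snrpg. With TMM factors the counts were 11 (29.7%) and 6 (16.2%), against 14.9% and 22.7% of the 3225 genes. With the tag-end correction they were 12 (32.4%) and 4 (10.8%), against 14% and 13.4%.

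**Figure D2:**
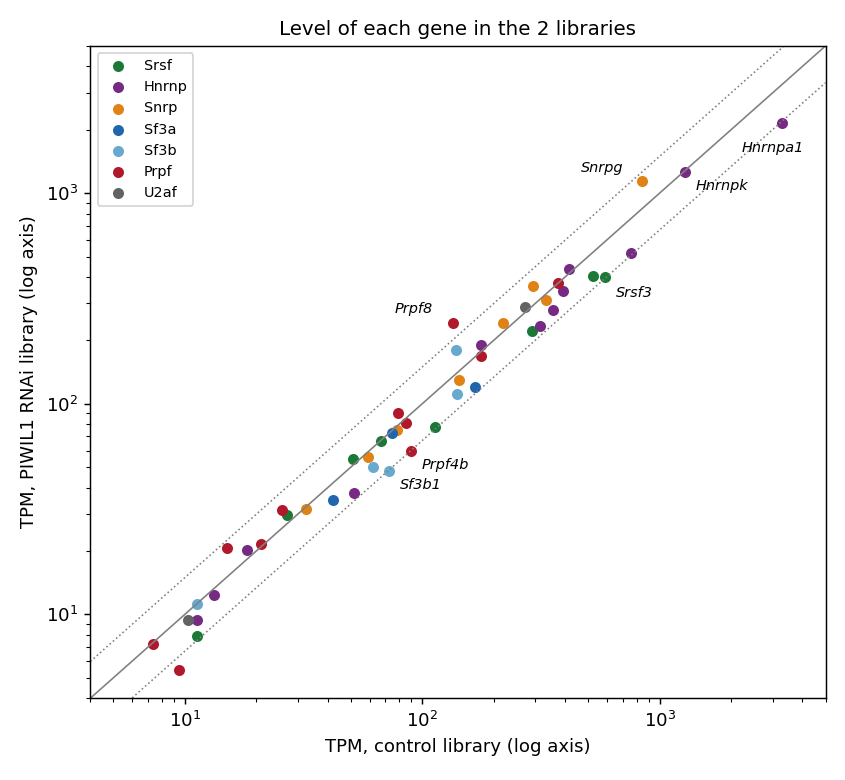
TPM of 49 genes in the control library (x axis) and the PIWIL1 RNAi library (y axis), both on log axes, coloured by family. The solid line marks equal TPM and the dotted lines a log2 ratio of 0.58 in either direction. Hnrnpa1 is the most abundant gene in both libraries, and Prpf8 lies farthest above the line.

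Among the SR genes, the summed copies were 5672 in the control and 4171 in the RNAi library, a log2 ratio of -0.41 (-0.47 to -0.35) that was -0.31 with TMM factors and -0.23 after the tag-end correction. Of the 8 genes 6 were lower and 2 (Srsf4 and Srsf9) higher, or 5 and 3 with TMM factors, and none was called. At the FDR alone 4 were lower, and 3 after the tag-end correction, beside 943 and 651 of all 9894 genes. Srsf3, the smallest SR protein, which also links splicing to mRNA export, had the most copies of the family.

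Srsf3 was counted 1996 times in the control and 1322 times in the RNAi library, a log2 ratio of -0.56 (-0.66 to -0.46, FDR 8.61e-24) that became -0.31 after correction (FDR 1.68e-06). All 6 of its abundant tags were lower in the RNAi library. Its tag at site 13 went from 1044 to 807 copies, the tag at site 12 from 677 to 314, and the tag at site 7 from 79 to 24, while site 6 held 134 and 128 copies. The tags of site 12 and site 7, the pair with the lowest ratios of the gene, both end in TG. Without the site 12 tag the gene's log2 ratio was -0.35 (-0.47 to -0.23).

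Srsf2 (SC35), an SR protein concentrated in nuclear speckles, had 1784 and 1340 copies, a log2 ratio of -0.38 (FDR 5.11e-10). Most copies lay on the site 1 tag ending in AT, with 1596 and 1125 copies, and the tags at sites 3 and 4 were slightly higher in the RNAi library (51 and 56 copies, 98 and 119 copies). After correction Srsf2 stood at -0.12 (FDR 0.379).

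Srsf1 (SF2/ASF), a prototype of the family, had 979 and 730 copies and a log2 ratio of -0.39 (-0.53 to -0.25, FDR 5.91e-06). Its counts were spread over 14 abundant tags, 10 of them lower and 4 higher. The most copied of these lay at site 12, with 363 and 253 copies. Corrected for the tag end, Srsf1 kept a ratio of -0.28 (FDR 0.00629).

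Srsf7, which like Srsf3 is an adaptor for mRNA export, had 382 and 255 copies, a log2 ratio of -0.55 (-0.78 to -0.31, FDR 0.000116). Both of its abundant tags were lower, with 283 and 206 copies at site 1 and 99 and 47 at site 2. The site 2 tag ends in TA, a class whose ratio was 0.12 relative to all tags, and the corrected ratio of the gene was -0.47 (FDR 0.0032). Srsf6, a larger SR protein, had 228 and 220 copies and an interval of -0.29 to 0.26. The remaining SR genes, Srsf4, Srsf9 and Srsf10, had between 64 and 354 copies in both libraries together, and every one of their intervals included 0.

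**Figure D3:**
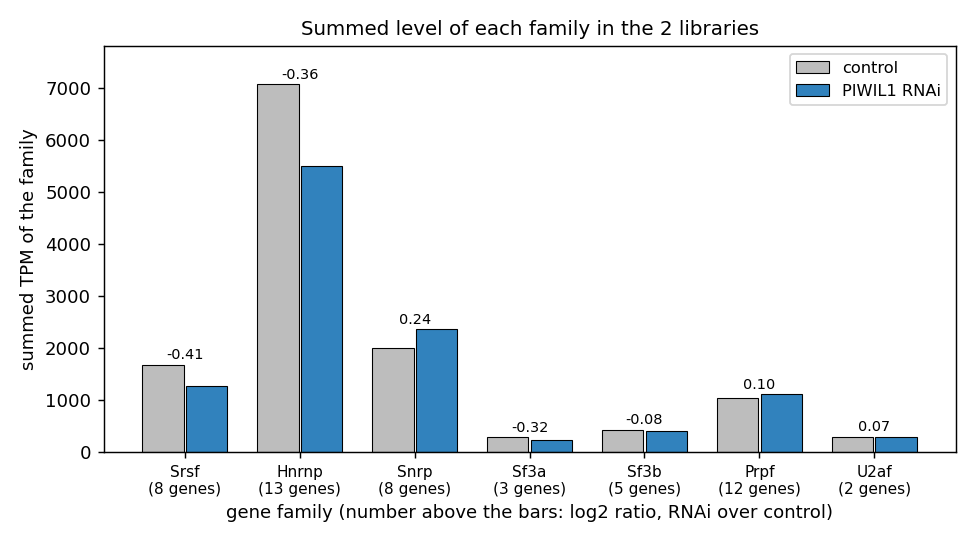
Summed TPM of each gene family in the control library (grey) and the PIWIL1 RNAi library (blue), with the log2 ratio of the sums above each pair of bars and 1 library per bar. The Hnrnp family is the largest in both libraries, the Srsf, Hnrnp and Sf3a sums are lower and the Snrp sum higher in the RNAi library, and the Sf3b ratio of -0.08 turns to 0.01 with TMM factors.

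The hnRNP genes formed the most abundant family, with 23910 copies in the control and 18149 in the RNAi library, a log2 ratio of -0.36 (-0.39 to -0.33), -0.27 with TMM factors and -0.22 after correction. Without Hnrnpa1 the sum went from 12825 to 11072 copies and the log2 ratio was -0.18. Of the 12 hnRNP genes listed in both libraries 9 were lower and 3 higher, and 1 was called.

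Hnrnpa1, which binds exonic and intronic silencers and shuttles between nucleus and cytoplasm, had 11085 copies (3273 TPM) in the control and 7077 copies (2142 TPM) in the RNAi library. Its log2 ratio was -0.61 (-0.65 to -0.57, FDR 5.24e-158), just past the threshold, and -0.31 after correction (FDR 4.56e-34), short of it. The site 1 tag carried 88.3% of the copies, 9714 in the control and 6327 in the RNAi library.

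The other tags of Hnrnpa1 did not share 1 ratio. The site 2 tag went from 527 to 170 copies (log2 ratio -1.60) and the site 3 tag from 212 to 67 (-1.63), whereas site 4 held 370 and 283 copies (-0.35) and site 8 held 93 and 95 (0.07). The site 2 and site 3 tags end in GT and TG, the classes with the lowest ratios, but their own ratios remained at -1.01 and -1.03 after the class medians were removed. Leaving out sites 1 to 3, the rest of the gene had 632 and 513 copies, a log2 ratio of -0.26 (-0.44 to -0.09). Of its 38 tags 31 differed by 1 base from a more copied tag of the same gene, and together these held 0.92% of its copies.

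Hnrnpab (CBF-A), an hnRNP A/B protein found with mRNAs in transport, had 2567 and 1726 copies, a log2 ratio of -0.54 (-0.63 to -0.45, FDR 2.58e-28). The site 1 tag with the AT end held 92.8% of the copies, 2406 and 1579. The tag at site 3 was also lower, with 78 and 62 copies, and the tag at site 2 was not, with 74 and 81. The corrected ratio of Hnrnpab was -0.25 (FDR 4.15e-05).

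Hnrnpr, a relative of the RNA-binding protein SYNCRIP, had 1328 and 1131 copies and a log2 ratio of -0.20 (-0.31 to -0.08, FDR 0.026). All 6 of its abundant tags were lower, and the tag-end correction left the ratio at -0.21 (FDR 0.0344). It did not pass the FDR with TMM factors (-0.10, FDR 0.272), with DESeq2 factors (-0.11, FDR 0.215) or when tags ending in 8 or more A were left out of the tables (FDR 0.074). At its site 5 the tables held a pair of tags that differ in the last base, one with 27 and 16 copies and the other with 18 and 10.

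Hnrnpk, a poly(C)-binding protein with KH domains, was the second most copied gene of the whole set and nearly equal in the libraries, with 4334 and 4182 copies (log2 ratio -0.02, -0.08 to 0.05). Here the correction lowered the ratio, to -0.18 (FDR 7.53e-05), because the main tag at site 2 (3317 and 3381 copies) ends in CA. Of its 8 abundant tags 6 were lower.

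Hnrnpu (SAF-A), which binds both chromatin and RNA, had 1406 and 1442 copies (log2 ratio 0.07, -0.03 to 0.18). Its abundant tags were mixed, 4 lower and 4 higher, and ranged from 429 and 504 copies at site 4 to 52 and 12 at site 7. The site 4 tag ends in GG, so its corrected ratio was 0.74, and the corrected ratio of the gene was 0.21 (FDR 0.000191). With TMM factors it was 0.17 (FDR 0.0166).

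The other hnRNP genes were given by range. Hnrnpa3 (1067 and 773 copies) and Hnrnph1 (1205 and 923 copies) were lower at the FDR alone, with log2 ratios of -0.43 and -0.35. Hnrnpa2b1, Hnrnph3, Hnrnpl, Hnrnpdl and Hnrnpul1 did not pass it and lay between -0.45 and 0.15. Hnrnph2 was listed in the RNAi library only, with 2 copies, below the 3 copies (0.886 TPM in the control and 0.908 TPM in the RNAi library) that a count of 0 still allows.

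**Figure D4:**
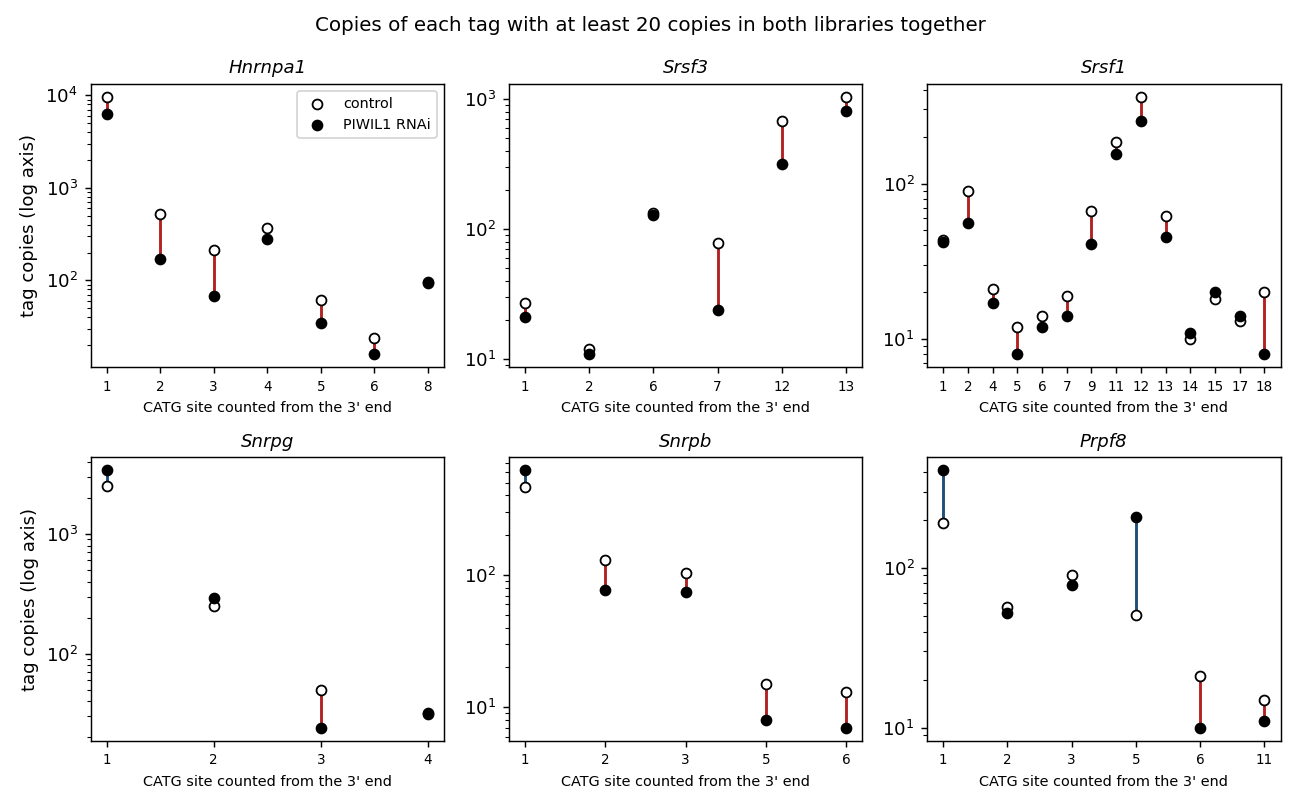
Copies (log axis) of every abundant tag (20 or more copies over the pair of libraries) for 6 genes, by CATG site counted from the 3′ end. Open circles are the control and filled circles the PIWIL1 RNAi library, joined by a red line where the RNAi count is lower and a blue line where it is higher. In Prpf8 the tags at sites 1 and 5 are higher and the other 4 lower, and in Snrpb the site 1 tag is higher and the other 4 lower.

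The Snrp genes had more copies in the RNAi library, 6769 in the control and 7777 in the RNAi library, a log2 ratio of 0.24 (0.19 to 0.28) that was 0.33 with TMM factors and 0.06 after the tag-end correction. The sum rested on Snrpg, without which it was 0.06 (-0.002 to 0.13). By gene 5 were lower and 3 higher, but 2 and 6 with TMM factors, and none was called.

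Snrpg, the G protein of the Sm ring, had 2853 and 3791 copies, a log2 ratio of 0.45 (0.38 to 0.52, FDR 6.07e-38), and 0.21 after correction (FDR 3.15e-10). The site 1 tag, which ends in a run of 3 A, went from 2509 to 3406 copies and the site 2 tag from 248 to 292. The site 3 tag, ending in GG, was lower, with 50 and 24 copies.

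Snrpd2, another Sm protein, had 992 and 1195 copies, a log2 ratio of 0.30 (0.18 to 0.43, FDR 2.17e-06). Of the genes among the 51 with at least 2 abundant tags, it was the only one whose abundant tags were all higher. Its main tag ends in AA, and the corrected ratio was 0.08 (FDR 0.237).

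Snrpb (Sm B) had 741 and 800 copies, a ratio whose interval ran from 0.00 to 0.29 and which did not pass the FDR (0.0987), although it did with TMM factors (log2 ratio 0.24, FDR 0.00964) and DESeq2 factors (0.23, FDR 0.0142). Its site 1 tag, also ending in AA, was higher, with 464 and 620 copies. Sites 2 and 3 were lower, with 129 and 77 and with 104 and 74 copies. Snrpn (Sm N), the paralogue of Snrpb expressed in neurons from an imprinted locus, had 1123 and 1023 copies (log2 ratio -0.10, -0.22 to 0.02), and all 4 of its abundant tags were lower. The site 1 tag held 87.1% of the copies, 954 and 916, with a log2 ratio of -0.02 (-0.155 to 0.11). The corrected ratio of Snrpn was -0.24 (FDR 0.0147). Snrpf, a further ring member, had 483 and 430 copies and an interval of -0.32 to 0.06. Snrpa (266 and 249 copies), Snrpb2 (110 and 105) and Snrpd1 (201 and 184) had log2 ratios from -0.09 to -0.03, within counting error.

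The subunits of SF3a and SF3b, which join the U2 snRNP and hold it at the branch site, had ratios of both signs. The Sf3a genes summed to 962 and 751 copies, a log2 ratio of -0.32 (-0.46 to -0.18), -0.23 with TMM factors and -0.10 after correction. Sf3a3 accounted for most of it, with 568 and 397 copies and a ratio of -0.48 (FDR 2.43e-05). Its site 1 tag ends in AT and held 93.1% of the copies, and the corrected ratio was -0.20 (FDR 0.321). Sf3a1 had 252 and 239 copies spread over 21 tags, and Sf3a2 142 and 115, with intervals that included 0.

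In the Sf3b family the sums were close, 1437 and 1326 copies (log2 ratio -0.08, -0.19 to 0.03), and this value turned to 0.01 with TMM factors. Sf3b1, the HEAT-repeat subunit that contacts the branch site, had 246 and 159 copies, a log2 ratio of -0.59 (-0.89 to -0.30, FDR 0.00126). The correction brought it to -0.45 (FDR 0.0379). The lowest of its tag ratios was that of site 5, ending in GG, with 38 and 11 copies, and without this tag the gene had 208 and 148 copies, a ratio of -0.46 (-0.77 to -0.14). Its most copied tag, at site 3, held 121 and 88 copies.

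Sf3b2 differed in the opposite direction, with 469 and 595 copies and a log2 ratio of 0.38 (0.20 to 0.56, FDR 9.01e-05). The site 1 tag ending in AA went from 349 to 500 copies and the site 6 tag from 29 to 17, and after correction the gene stood at 0.18 (FDR 0.0976). Sf3b3 was lower at the FDR alone, with 474 and 369 copies (-0.33, FDR 0.0223), and all 3 of its abundant tags were lower. After correction it was at -0.20 (FDR 0.36), and with TMM factors at -0.23 (FDR 0.108). Sf3b5 had 210 and 166 copies (-0.30, FDR 0.236), and Sf3b4 only 38 and 37, so that its interval of -0.70 to 0.69 left a difference undetectable at this depth.

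U2af1, the small U2AF subunit that reads the AG at the end of the intron, had 920 and 949 copies (log2 ratio 0.08, -0.05 to 0.21). Its site 1 tag held 98.1% of the copies, and the correction gave -0.02. Its related gene U2af1l4 had 35 and 31 copies (interval -0.88 to 0.60). Neither U2af gene passed the FDR.

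The Prpf genes as a sum were close to equal, with 3496 and 3662 copies (log2 ratio 0.10, 0.04 to 0.17) and 6 genes lower and 6 higher. With TMM factors the sum was at 0.20, with 3 genes lower and 9 higher, and after the tag-end correction it was at 0.16. Prpf8, the upregulated gene of the 51, belonged to this family and held 455 of its control copies and 796 of its RNAi copies. The difference in copies of Prpf8 was larger than that of the sum, so the other Prpf genes together had fewer copies in the RNAi library. The log2 ratio of their sum was not computed.

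Prpf8, the large scaffold protein at the catalytic core of the spliceosome, was upregulated from 455 copies (134 TPM) to 796 copies (241 TPM), a log2 ratio of 0.84 (0.67 to 1.01, FDR 1.46e-23), and 0.80 after correction (FDR 1.61e-21). The rise lay on 2 of its 6 abundant tags. The site 1 tag, ending in CC, went from 192 to 408 copies (log2 ratio 1.12), and the site 5 tag, ending in AC, from 51 to 207 (2.06). The tags between and beyond them did not share it: site 2 held 57 and 52 copies, site 3 held 90 and 78, site 6 held 21 and 10, and site 11 held 15 and 11. Without the site 1 and site 5 tags the gene had 212 and 181 copies, a log2 ratio of -0.19 (-0.49 to 0.10). Neither tag lay within 1 base of a tag listed under another gene.

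Prpf4b, a kinase that acts on the tri-snRNP, had 303 and 198 copies, a log2 ratio of -0.58 (-0.84 to -0.31, FDR 0.00036) that fell just short of the threshold before rounding and passed it at -0.62 after correction (FDR 0.000197). Most of the difference in copies lay on the site 1 tag, with 262 and 161 copies (log2 ratio -0.67). The rest of the gene had 41 and 37 copies, a log2 ratio of -0.11 (-0.79 to 0.565), an interval that included the site 1 ratio.

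The other named PRP genes did not pass the test. Prpf19, the ubiquitin ligase of the PRP19 complex, had the most copies of the family, 1266 and 1240 (log2 ratio 0.01, -0.11 to 0.12). Its corrected ratio was 0.20 (FDR 0.00108), below the ratio threshold. Prpf6, a bridging protein of the tri-snRNP, had 600 and 558 copies (-0.07), Prpf18, a factor of the second step of splicing, 267 and 298 (0.19), and Prpf38b 290 and 269 (-0.07). Prpf3, Prpf4, Prpf31, Prpf38a and Prpf40b had 49 to 191 copies in both libraries together and none passed the FDR, among them Prpf38a with 32 and 18 copies (-0.79, -1.71 to 0.08, FDR 0.277).

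Across all 51 genes the tables listed 487 tags, of which 189 were abundant. Of these 121 (64%) were lower in the RNAi library, where 55.3% of the 16021 such tags of all genes were lower. With TMM factors the shares were 59.3% and 49%. Among the 41 members with at least 2 abundant tags, all abundant tags were lower in 10 (24.4%) and higher in 1 (2.44%), against 21.4% and 12.6% of all such genes. The 10 genes were U2af1l4, Sf3a2, Sf3a3, Sf3b3, Srsf3, Srsf7, Srsf10, Hnrnpa3, Hnrnpr and Snrpn. In the remaining 30 genes the abundant tags pointed both ways.

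The tag end went with these directions among the splicing genes as it did elsewhere. Of the 94 tags whose end class was below 0, 72 were lower in the RNAi library, with a median log2 ratio of -0.42, and of the 95 tags of classes above 0, 49 were lower, with a median of -0.01. Over all genes the shares lower were 72% and 42.5%. In the hnRNP genes the sums were 16757 and 11155 copies on the first kind of tag and 6907 and 6752 on the second, log2 ratios of -0.55 and 0.00. In the SR genes the corresponding ratios were -0.48 and -0.14, and in the Snrp genes -0.33 and 0.31. Single tags held much of these sums. In the hnRNP genes the Hnrnpa1 site 1 tag held 9714 and 6327 copies of the first kind. The Hnrnpk site 2 tag held 3317 and 3381 of the second. In the Snrp genes the Snrpg site 1 tag held 2509 and 3406 of the second kind. No tag of the 51 genes ended in a run of 8 or more A.

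**Figure D5:**
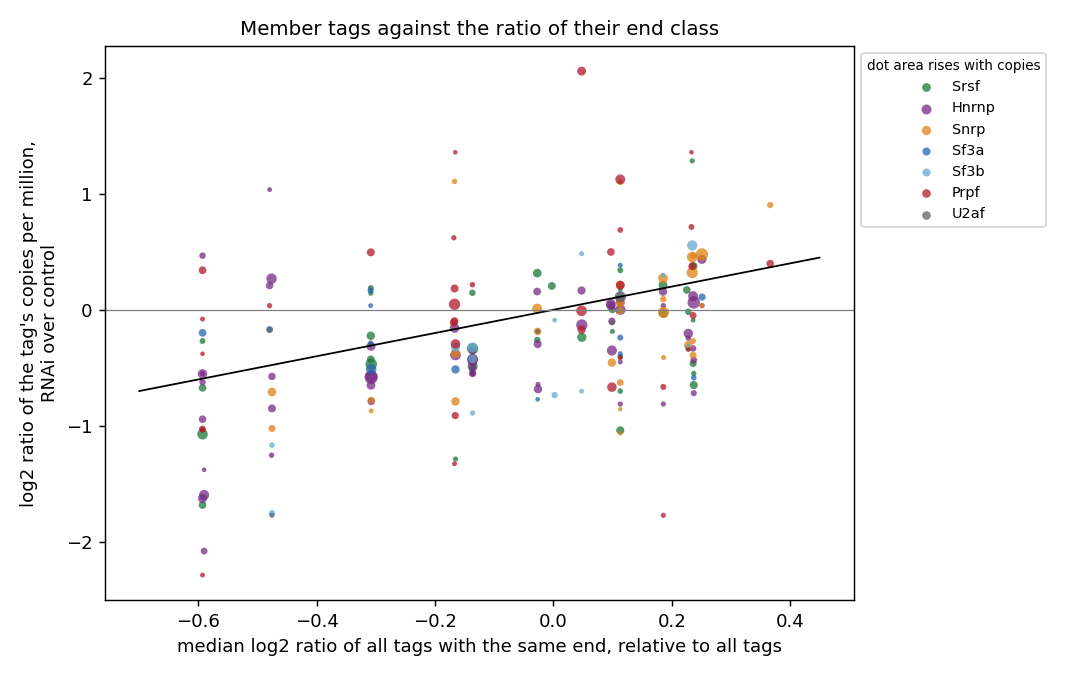
Log2 ratio, RNAi over control, of each of the 189 abundant tags (y axis) against the median log2 ratio of all tags with the same end, relative to all tags (x axis), with colours for families and dots that grow with copies. The line marks equal values. Tags of classes below 0 lie mostly under the horizontal line at 0, and the Prpf8 tags at 1.12 and 2.06 lie well above both lines.

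Position along the transcript was less uniform. In 29 of the 51 genes the most copied tag lay at site 1, the site nearest the 3′ end, and in 22 elsewhere, as at site 20 in Hnrnpa3, site 12 in Srsf1 and site 6 in Sf3b3. Site 1 held 61.4% of the copies of the 51 genes and 63.6% of those of all genes. Such positions follow the reference transcripts used by the authors, and other 3′ ends were not distinguished here.

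For comparison, 100 further spliceosome and splicing regulator genes were taken as a list, 81 of which had a value under 82 identifiers. Of these, 6 (7.32%) were called downregulated (Clk4, Dhx15, Ik, Srrm1, Zcrb1 and Zmat2) and 4 (4.88%) upregulated (Cdc5l, Clk2, Eif4a3 and Plrg1), beside the 5.97% and 2.96% of all genes, and their median log2 ratio was -0.14. After correction 4 (4.88%, beside 3.75% of all genes) were called downregulated, among them Dhx15, the helicase that releases spent spliceosomes (343 and 203 copies), and Zcrb1, a protein of the minor spliceosome (134 and 59 copies). None was upregulated after correction. Cdc5l and Plrg1, partners of Prpf19 in the PRP19 complex, went from 146 to 322 and from 104 to 269 copies, log2 ratios of 1.18 and 1.41 that became -0.23 and 0.17. Of the 205 abundant tags of the listed genes 62.4% were lower, a share close to the 64% of the 51 genes, where all genes had 55.3%.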

How the data were processed

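Digital gene expression libraries of control and PIWIL1 RNAi neurons, 1 of each, were analysed. For every gene the authors deposited a count, the sum of its tag copy numbers, and the TPM, that count per 1000000 clean tags; the authors also deposited GO terms and the sequence, site and copies of each tag. Per the labels the build was rn4; the program that matched tags to genes is not given in the sources used here. Clean tags, recovered from counts and TPM, were 3386865 (control) and 3303360 (RNAi), of which 57.5% and 56.5% lay on listed genes. Tags below 2 copies were absent.

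The result of 1 gene of the set, which is included in counts and sums, is not reported here. Symbols came from a RefSeq table of assembly GRCr8 by accession (9337 of 9894 genes); no coordinates are given because the builds differ. The members and gene lists were chosen with earlier results of these data known. Named are all Sf3a, Sf3b and U2af genes, the 5 most copied genes of Srsf, Hnrnp, Snrp and Prpf, every called gene, genes whose call changes with the tag-end correction and genes listed in only one library; other genes named with values (such as Hnrnpa3, Hnrnph1 and the comparison list) were chosen after their values were seen.

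Fisher's exact test (two-sided) set a gene's copies against all other copies on genes, with Benjamini-Hochberg adjustment over 9894 genes. Intervals of ratios are exact (Clopper-Pearson) at 95%. The tag-end correction grouped tags by their final 2 bases, with separate groups for tags finishing in 3 or more A by run length. Within each group the median log2 ratio (abundant tags of other genes, 0.5 copies added) minus that of all abundant tags was removed equally from both libraries. The test and the correction were tested on simulated data. These held counting error only, with effects seeded for the same tag-end groups, so they could not check either against variation between cultures. Alternatives were edgeR's TMM factors (1.02 and 0.976), DESeq2 size factors (1.04 and 0.959), other filters and thresholds, and an exact test in edgeR under 3 assumed coefficients of variation (0.1, 0.2 and 0.4). Genes with at least 200 copies at the FDR alone, and sums without Hnrnpa1, were chosen after seeing the data. Python 3.11.15, NumPy 2.4.6, pandas 2.3.3, SciPy 1.17.1, R 4.3.3, edgeR 4.0.16 and DESeq2 1.42.0 were used.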

Additional observations from a re-analysis of the deposited data

How the results depend on the processing

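The number of genes called downregulated (3) was 1 with TMM factors, 1 with DESeq2 size factors, 1 at a log2 threshold of 1, 1 at an FDR of 0.001, and 0 in edgeR's exact test with an assumed coefficient of variation of 0.1, 0.2 or 0.4. Over all genes the number was 591 as measured, and 459, 475, 262, 257, 122, 1 and 0 in the same order. The number called upregulated (1) was 0 at a log2 threshold of 1 and 0 with a coefficient of variation of 0.2 or 0.4. Over all genes the number called upregulated was 293 as measured, and 146, 17 and 0 in the same order. At an FDR of 0.001 the downregulated gene was Hnrnpa1. The summed log2 ratio of all 51 genes (-0.19) was -0.10 with TMM factors, -0.11 with DESeq2 factors, -0.12 with the tag-end correction and -0.075 without Hnrnpa1. The median (-0.08) turned to 0.0125 with TMM factors and to 0.0030 with DESeq2 factors, since these moved the median of all genes by 0.0945 and 0.0850, and was -0.11 with the tag-end correction. The family sums after the tag-end correction were -0.23 (Srsf), -0.22 (Hnrnp), 0.0585 (Snrp), -0.10 (Sf3a), -0.07 (Sf3b), 0.16 (Prpf) and -0.03 (U2af), the last with a change of sign from 0.07. Without the most copied gene they were -0.33 (Srsf without Srsf3), -0.18 (Hnrnp without Hnrnpa1), 0.0616 (Snrp without Snrpg), -0.12 (Sf3a without Sf3a3), -0.37 (Sf3b without Sf3b2), 0.1552 (Prpf without Prpf19, with Prpf8 kept) and -0.14 (U2af without U2af1). The share of tags lower (64%) was 71.4% over tags that do not end in A, against 60.9% over such tags of all genes. No call changed when tags ending in 8 or more A were left out or when a tag missing from one of the libraries was given 1 copy there. At the FDR alone Hnrnpr was lost in the first of these (FDR 0.074), Hnrnpr and Sf3b3 were lost and Hnrnpu and Snrpb gained with TMM or DESeq2 factors, and 5 of the 51 genes were lost and 4 gained with the tag-end correction. Of the 32 named genes with a ratio, no called gene changed sign under TMM factors, DESeq2 factors, the correction or these settings. Named genes not called before or after such a change of setting had 17 sign changes in all.

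No paired analysis was possible because each condition had 1 library, and leaving out a replicate was not an option. Fisher's exact test holds no variation between cultures, so its FDR values describe these libraries only. For genes such as Sf3b4 and U2af1l4, the counting intervals span more than 1 log2 unit.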

Other observations

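A gene described in the tables as similar to splicing factor p54, an older name used for an SR-related protein, had no symbol and was therefore not among the 51 genes. It had 578 copies in the control and 373 in the RNAi library, a log2 ratio of -0.60 (-0.79 to -0.41), and with an FDR of 6.11e-08 (Fisher's exact test, adjusted over all genes) it was called downregulated. After the tag-end correction its ratio was -0.23 (FDR 0.209), past neither threshold.

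The deposited GO process terms named splicing or mRNA processing for 16 of the 51 genes and for 72 genes in all, while 40 of the 51 genes had some process term.

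Small variants of abundant tags were common. Of the 487 tags of the 51 genes 135 differed by 1 base from a more copied tag of the same gene that had at least 20 copies, but they held only 0.629% of the copies.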
